A study of Mus musculus with 12 samples.

Results

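The 35 genes described here encode the superoxide dismutases, catalase and glutathione peroxidases, the peroxiredoxins, the thioredoxin and glutathione systems that keep those enzymes reduced, the glutathione S-transferases, the regulator NRF2 with 2 enzymes induced under stress, and the metallothioneins *Mt1* and *Mt2*. They were picked by symbol for what their products do, with earlier results of these data known, and make up 35 of the 55450 genes in the count table. Poly-A RNA had been sequenced from the tibialis anterior (TA), a fast muscle of the lower leg, of wild-type (WT) mice of the background labelled 129Pas (129SvPas in the study's methods). The ages were the embryonic day E18.5, 2 weeks and 7 weeks after birth, with 4 libraries at each, and the study describes them as coming from different mice. The labels name no treatment or transgene, so age is the only factor given that differs between the groups. The labels do not tie libraries to animals, so p-values measure the spread between these libraries. All 35 genes had enough reads to be tested.

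Respiration and several oxidases release superoxide, which the superoxide dismutases turn into hydrogen peroxide. Catalase, glutathione peroxidases and peroxiredoxins remove that peroxide, and the latter families are recharged by glutathione or thioredoxin with electrons that come from NADPH. The transcription factor NRF2 (gene *Nfe2l2*) is held in the cytoplasm by KEAP1 and, when released, switches on many of these genes through the antioxidant response element. Metallothioneins are small proteins packed with cysteines that bind zinc and copper, and the metal-sensing factor MTF1 drives their genes through metal response elements.

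The glutathione peroxidases that are built on selenocysteine were higher at 7 weeks than at E18.5 and those built on cysteine were lower, so the codon of the catalytic residue is shown with its neighbours. In *Gpx1*, *Gpx3* and *Gpx4* this is the selenocysteine codon TGA, and in *Gpx7* and *Gpx8*, which reside in the endoplasmic reticulum, a cysteine codon stands at the aligned place. The thioredoxin reductases *Txnrd1* and *Txnrd2* carry their TGA just before the stop codon, as codon 498 of 499 and codon 526 of 527. The stretches lie in coding exons of GRCm39 and are written 5′ to 3′ on the coding strand, with that codon in capitals, at chr9:108216650-108216652, chr11:54798082-54798084 and chr10:79890571-79890573 on the plus strand, chr4:108260627-108260629 and chr13:113182195-113182197 on the minus strand, and chr10:82731871-82731873 and chr16:18296522-18296524 on the plus strand.
Gpx1: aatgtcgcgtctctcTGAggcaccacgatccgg
Gpx3: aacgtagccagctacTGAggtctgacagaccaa
Gpx4: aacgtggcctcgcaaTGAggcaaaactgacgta
Gpx7: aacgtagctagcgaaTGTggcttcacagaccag
Gpx8: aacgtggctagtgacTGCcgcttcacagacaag
Txnrd1: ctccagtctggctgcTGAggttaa
Txnrd2: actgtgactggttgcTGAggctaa

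*Mt1* and *Mt2* are neighbours on the plus strand of chromosome 8, and their changes before and after 2 weeks differed most among the 35 genes. Their coding sequences are shown because nearly every stretch of them carries a metal-binding cysteine, whose codons TGC and TGT are in capitals. Each runs over 61 codons, of which 20 encode cysteine. The exons were joined, and they span chr8:94905939-94906821 for *Mt1* and chr8:94899476-94900055 for *Mt2* in GRCm39. The aligned sequences share 148 of 186 bases, and their products share 46 of 61 residues.
Mt1: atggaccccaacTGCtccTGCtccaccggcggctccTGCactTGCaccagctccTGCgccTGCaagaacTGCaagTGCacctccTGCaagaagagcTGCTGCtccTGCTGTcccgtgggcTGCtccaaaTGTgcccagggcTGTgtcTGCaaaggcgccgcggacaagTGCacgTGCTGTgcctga
Mt2: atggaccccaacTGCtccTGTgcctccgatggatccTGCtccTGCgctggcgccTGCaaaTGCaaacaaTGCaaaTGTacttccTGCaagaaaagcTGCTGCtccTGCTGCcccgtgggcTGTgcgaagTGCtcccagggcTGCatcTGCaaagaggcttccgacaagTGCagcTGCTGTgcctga

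The 250 bases before the annotated starts, from RefSeq on GRCm38.p6, were searched on both strands for the core of the metal response element (TGCACNC or TGCGCNC) and of the antioxidant response element (TGACNNNGC). Windows were on record for 29 of the 35 genes, with 39 windows in all, and none were used for *Sod3*, *Prdx6*, *Gclc*, *Gsr*, *Gsta4* and *Hmox1*. The metal element core was found in 10 windows of 8 genes, and 21.4% of all 32817 promoter windows held it. The antioxidant element core was found in 6 windows of 6 genes (*Sod1*, *Prdx1*, *Txnrd1*, *Gclm*, *Nfe2l2* and *Mt2*), and 10.2% of all windows held it. A match is a run of letters and not a mapped binding site, and the cores can overlap, as they do in the window of *Gclm*. The windows of *Mt1* (chr8:94178839-94179088) and *Mt2* (chr8:94172368-94172617), both on the plus strand, are shown with 1 and 3 metal element cores in capitals.
Mt1: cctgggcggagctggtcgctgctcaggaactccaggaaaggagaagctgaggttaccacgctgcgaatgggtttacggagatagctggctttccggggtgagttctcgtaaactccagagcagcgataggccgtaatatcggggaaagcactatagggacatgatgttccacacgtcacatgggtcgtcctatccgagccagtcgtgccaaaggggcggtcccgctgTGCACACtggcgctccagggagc
Mt2: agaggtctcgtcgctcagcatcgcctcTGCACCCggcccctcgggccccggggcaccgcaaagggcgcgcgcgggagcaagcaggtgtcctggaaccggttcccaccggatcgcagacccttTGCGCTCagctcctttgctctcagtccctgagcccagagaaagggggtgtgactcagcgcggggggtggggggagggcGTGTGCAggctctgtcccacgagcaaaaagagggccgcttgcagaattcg
Of the genes with the antioxidant element core, *Gclm*, *Txnrd1* and *Nfe2l2* were higher at 7 weeks than at 2 weeks by the test given below. *Mt2* was lower, and *Sod1* and *Prdx1* were not called. The window of *Nqo1*, with the largest rise of the 35 genes in that interval, held no such core. Bases further upstream were not searched, so an element there would have been missed. *Gclm* (chr3:122245307-122245556) and *Txnrd1* (the second of its annotated starts, chr10:82858956-82859205), both on the plus strand, are shown with the antioxidant element core in capitals.
Gclm: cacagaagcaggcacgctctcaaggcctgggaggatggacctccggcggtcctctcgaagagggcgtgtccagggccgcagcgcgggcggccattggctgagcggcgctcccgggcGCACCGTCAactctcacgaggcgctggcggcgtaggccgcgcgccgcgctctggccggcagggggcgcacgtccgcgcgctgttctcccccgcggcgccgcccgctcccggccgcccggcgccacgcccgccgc
Txnrd1: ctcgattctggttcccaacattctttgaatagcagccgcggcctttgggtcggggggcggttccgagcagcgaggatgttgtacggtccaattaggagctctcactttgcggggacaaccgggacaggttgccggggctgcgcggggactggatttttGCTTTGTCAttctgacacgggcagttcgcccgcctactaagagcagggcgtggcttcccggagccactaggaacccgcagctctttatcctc

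The libraries held between 63018968 and 123449246 counted reads. Levels are given below as CPM, the count of a gene relative to all counts of its library, after scaling by the trimmed mean of M-values (TMM), which sets the bulk of genes equal between libraries. At E18.5 the top 20 genes by abundance held 8.38% to 11.3% of a library, and later 32.2% to 37.7%, which lowers all other genes when libraries are scaled to their total count. From E18.5 to 2 weeks the median gene changed by -0.09 on the log2 scale with TMM and by -1.02 with scaling to the total count. For 2 to 7 weeks these medians were -0.03 and -0.38. Directions below hold relative to the bulk of genes, and genes that turn under the total count are named. The muscle markers *Ckm*, *Acta1*, *Des*, *Ttn*, *Tnnt3*, *Myh4*, *Myh3* and *Myh8* were detected in every library, as the labelled tissue should. Their sum was 15258 to 26340 CPM at E18.5, 124683 to 149964 CPM at 2 weeks and 138036 to 169829 CPM at 7 weeks. E18.5 replicates 3 and 4 stood apart by the brown fat marker *Ucp1*, chosen after the values were seen, which was at 224 and 923 CPM in them. It was at 0.305 CPM in E18.5 replicate 1, had no read in replicate 2, and reached 11.6 CPM at most at 2 weeks and 0.330 CPM at 7 weeks. The 6 adipocyte markers summed to 1926 and 2693 CPM in those libraries and to 230.5 and 178 CPM in the others of that age. These libraries are called *Ucp1*-rich below. What became of the members' calls to 2 weeks without both is given with the results or at the end. For other comparisons and other genes this is given only in part. E18.5 replicate 2 had the highest sums of that age for 6 epidermis markers and for 7 cartilage and bone markers. They were 54.7 and 145 CPM there, against 6.46 to 16.4 CPM and 25.4 to 62.99 CPM in the other libraries of that age. Replicate 2 stays in the fits without replicates 3 and 4, so that setting is not read as free of RNA from other tissues. Base composition moved with age as well. The median change to 2 weeks was -0.64 among genes below the lower quartile of GC content and 0.73 among those above the upper one. The members had a median GC content of 48.9%, against 49.0% for all tested genes.

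From E18.5 to 2 weeks, 20 of the 35 genes rose and 4 fell (edgeR quasi-likelihood test over all 19276 tested genes, Benjamini-Hochberg adjusted p below 0.05, which is what rose, fell and called mean below). The share of members called, 68.6%, lay near the 65.7% of all genes, so nothing is read from that number. The directions were uneven: 57.1% of the members rose and 11.4% fell, while 31.5% of all genes rose and 34.2% fell. The median log2 fold change was 0.86 over the members and -0.09 over all genes. From 2 to 7 weeks, 9 members rose and 6 fell, 42.9% in all, against 27.5% of all genes (13.5% up, 13.9% down), with medians of 0.31 and -0.03. At 7 weeks against E18.5, 23 were higher and 4 lower, 77.1% in all, against 71.4% of all genes (34.3% higher, 37.1% lower), with medians of 1.17 and -0.09. The change before 2 weeks differed from the change after it for 13 members, 37.1%, near the 38.4% of all genes. Comparisons share the libraries of an age and are not independent. Without E18.5 replicates 3 and 4 the share of members called lay further from that of all genes: 27 members (24 up, 3 down) or 77.1% against 58.0% to 2 weeks, 17 or 48.6% against 25.8% after it, 26 or 74.3% against 64.6% at 7 weeks against E18.5, and 20 or 57.1% against 33.0% for the difference. With the GC trend removed, 25 members (21 up, 4 down) or 71.4% were called to 2 weeks, against 64.5% of all genes, and 17 or 48.6%, against 33.1%, for the difference. With scaling to the total count, 9 members rose and 14 fell to 2 weeks (13.2% and 61.9% of all genes), 2 rose and 10 fell after it (4.92% and 28%), and 8 were higher and 14 lower at 7 weeks than at E18.5 (11.9% and 69.0%), with a member median of -0.07 in the first interval against -1.02 for all genes.

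**Figure D1:**
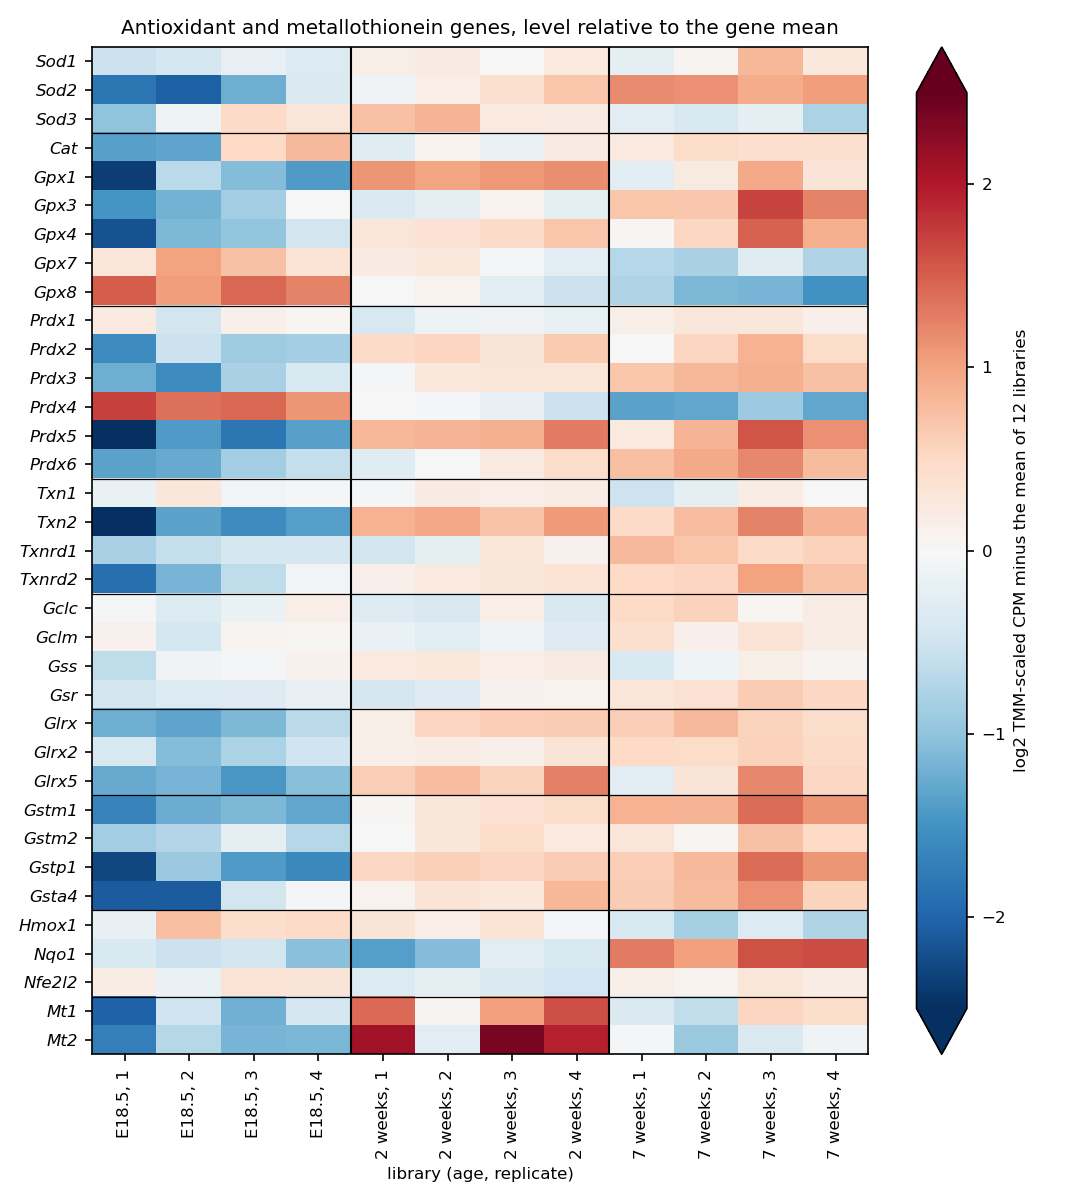
Level of each of the 35 genes (rows, grouped by role) in each of the 12 libraries (columns), as log2 TMM-scaled CPM minus the mean of the gene over all libraries. Most rows turn from blue at E18.5 to red later, Gpx7, Gpx8 and Prdx4 run the other way, and Mt1 and Mt2 are reddest in 3 of the 4 libraries at 2 weeks.

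The members are sorted here by their calls in both intervals. Over all genes 31.5% rose and 34.2% fell to 2 weeks, and 13.5% rose and 13.9% fell after it. The share of all genes that follow each course was not computed, so nothing is read from the size of these groups. A rise to 2 weeks with no call after it was the most frequent, with 16 genes, and a rise in both intervals was seen for *Prdx6*, *Txnrd1* and *Gstm1*. Another 5 genes rose only in the second interval: *Gpx3*, *Gclc*, *Gclm*, *Gsr* and *Nqo1*. *Gpx7*, *Gpx8* and *Prdx4* fell in both intervals. *Mt2* rose and then fell, and *Nfe2l2* fell and then rose. *Sod3* and *Hmox1* fell after 2 weeks alone, and *Cat*, *Prdx1*, *Txn1* and *Gss* passed the threshold in neither interval. A call in one interval and none in the other is not a tested difference between them, which is given below where it was found.

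**Figure D2:**
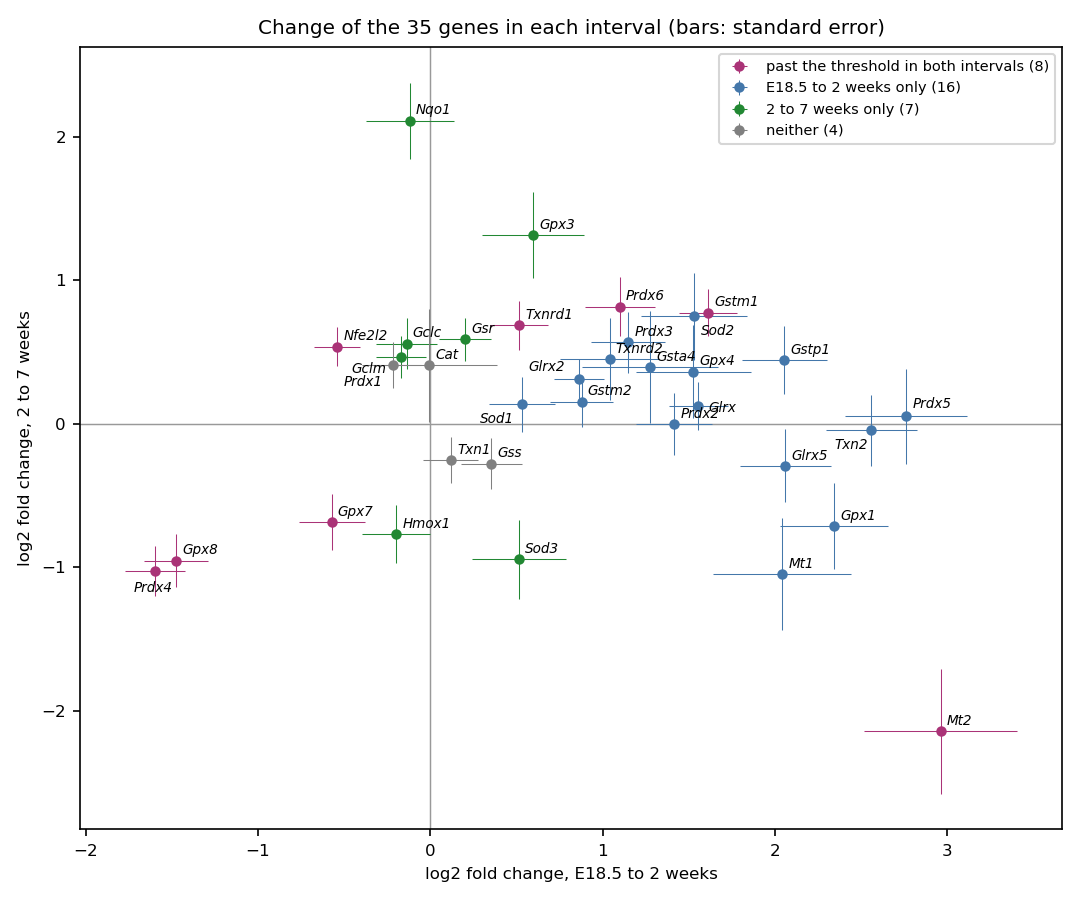
Log2 fold change of each gene from E18.5 to 2 weeks (horizontal axis) and from 2 to 7 weeks (vertical axis), with standard errors as bars and colour for the interval in which it was called. Points on the right near the horizontal line rose to 2 weeks and changed little later, Nqo1 stands at 2.11 on the vertical axis with -0.12 on the horizontal one, and Mt2 stands at 2.96 and -2.14.

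Among the superoxide dismutases, the mitochondrial enzyme *Sod2* had the largest rise to 2 weeks. *Sod2* was at 61.4, 52.8, 93.1 and 169.5 CPM in the E18.5 libraries, at 205, 244, 288 and 353 CPM at 2 weeks and at 492, 479, 412 and 448 CPM at 7 weeks (libraries are always listed by replicate number, which implies no order). All 2-week libraries lay above all E18.5 libraries, and all 7-week libraries above those. The log2 fold change to 2 weeks was 1.53 ± 0.31 (adjusted p = 0.00063), where the value after ± is the standard error, and it was 2.25 without E18.5 replicates 3 and 4. The change after 2 weeks, 0.75 ± 0.30 (adjusted p = 0.082), missed the threshold, although it was called when E18.5 replicate 2 or 4 was left out (adjusted p = 0.049 and 0.019). The cytosolic copper-zinc enzyme *Sod1* lay at 64.9 to 81.7 CPM at E18.5, 94.0 to 112 CPM at 2 weeks and 80.5 to 168 CPM at 7 weeks. Its rise to 2 weeks was 0.53 ± 0.19 (adjusted p = 0.025) with no overlap between the libraries, but -0.40 under the total count, and the call was lost without E18.5 replicate 1 or 2-week replicate 4 (adjusted p = 0.058 and 0.056). Exons of *Scaf4* on the opposite strand cover 48.8% of its exon length, and whether the counting used the strand is not given in the sources used here. Such overlaps also cover 29.2% of *Prdx5*, 21.9% of *Gss* and 16.8% of *Prdx2*. The secreted enzyme *Sod3*, which guards the extracellular matrix, was at 4.48, 8.42, 12.5 and 11.2 CPM at E18.5, at 15.03, 16.3, 10.7 and 10.4 CPM at 2 weeks and at 7.56, 6.83, 7.58 and 5.25 CPM at 7 weeks. The libraries of the later ages do not overlap, and the log2 fold change was -0.94 ± 0.28 (adjusted p = 0.022), which differed from the change before 2 weeks by 1.46 ± 0.46 (adjusted p = 0.024). The fall lost its call when any of 2-week replicates 1 and 2 or 7-week replicates 2 and 4 was left out (adjusted p from 0.052 to 0.07). To 2 weeks, *Sod3* changed by 0.52 ± 0.27 (adjusted p = 0.11), and by 1.02 (adjusted p = 0.011) without E18.5 replicates 3 and 4.

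Catalase (*Cat*, ENSMUSG00000027187, GRCm39 chr2:103284194-103316185, minus strand), the peroxisomal enzyme that splits hydrogen peroxide, was the member whose change to 2 weeks moved most when the *Ucp1*-rich libraries were left out. *Cat* was at 41.2, 42.3, 148 and 184 CPM at E18.5, at 85.7, 112, 93.5 and 122 CPM at 2 weeks and at 125, 144, 141 and 138 CPM at 7 weeks. E18.5 replicates 3 and 4 exceeded every library of the later ages, while replicates 1 and 2 lay below every one of them. With all libraries the change to 2 weeks was -0.01 ± 0.39 (adjusted p = 0.99). Without both it was 1.31 ± 0.19 (adjusted p = 0.00013), with 2 libraries left at E18.5. At 7 weeks against E18.5 the values were 0.40 ± 0.39 (adjusted p = 0.37) and 1.72 ± 0.20 (adjusted p = 1e-05).

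The selenium-dependent glutathione peroxidases were all higher at 7 weeks than at E18.5, by different courses. *Gpx1*, the abundant cytosolic form, was at 5.76, 18.4, 14.0 and 11.1 CPM at E18.5, at 63.1, 58.1, 62.5 and 65.9 CPM at 2 weeks and at 24.3, 34.4, 56.7 and 37.1 CPM at 7 weeks. Every 2-week library exceeded every library of the other ages. It rose by 2.34 ± 0.31 (adjusted p = 2.2e-05), changed by -0.71 ± 0.30 (adjusted p = 0.091) after 2 weeks, and its changes in the intervals differed by 3.05 ± 0.49 (adjusted p = 0.00057). That later decrease was called without E18.5 replicate 1 or without 7-week replicate 3 (adjusted p = 0.03 and 0.033). *Gpx4*, which reduces lipid peroxides in membranes, was at 28.1, 58.3, 64.4 and 92.1 CPM at E18.5, at 157, 162, 176 and 205 CPM at 2 weeks and at 129, 182, 352 and 238 CPM at 7 weeks. Its libraries separated E18.5 from both later ages, which overlapped, and the log2 fold change to 2 weeks was 1.53 ± 0.33 (adjusted p = 0.0011). *Gpx4* has a GC content of 60.2%, and with the trend over GC content removed the change was 0.40 ± 0.25 (adjusted p = 0.18). *Gpx3*, the secreted plasma form, followed a later course: it was at 13.8, 17.1, 21.4 and 38.7 CPM at E18.5, at 30.3, 33.3, 41.4 and 32.7 CPM at 2 weeks and at 62.9, 62.5, 126 and 91.4 CPM at 7 weeks. The 7-week libraries lay above all others, and the log2 fold change was 1.32 ± 0.30 (adjusted p = 0.0061) after 2 weeks and 0.60 ± 0.30 (adjusted p = 0.092) before it. Without E18.5 replicates 3 and 4 the earlier change was 1.15 (adjusted p = 0.0041), and without replicate 4 alone 0.98 (adjusted p = 0.0043). Exons of *Tnip1* on the opposite strand cover 85.0% of the exon length of *Gpx3*.

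The peroxidases of the endoplasmic reticulum ran the other way. *Gpx8*, which consumes peroxide made during disulphide formation, was at 64.3, 46.8, 61.4 and 53.1 CPM at E18.5, at 22.6, 24.0, 18.9 and 15.7 CPM at 2 weeks and at 13.5, 10.5, 10.1 and 7.97 CPM at 7 weeks. *Prdx4*, the peroxiredoxin of that compartment, was at 52.8, 41.7, 43.5 and 34.6 CPM, then 16.04, 15.9, 14.0 and 11.1 CPM, then 6.34, 6.54, 8.61 and 6.53 CPM. For both genes the 3 ages did not overlap. *Gpx8* fell in both intervals, with log2 fold changes of -1.47 ± 0.19 (adjusted p = 1.5e-05) and -0.95 ± 0.19 (adjusted p = 0.0023), and so did *Prdx4*, with -1.60 ± 0.17 (adjusted p = 4.1e-06) and -1.02 ± 0.17 (adjusted p = 0.00097). *Gpx7*, a relative that passes oxidising power to protein disulphide isomerase, was at 15.1, 24.8, 20.4 and 15.6 CPM, 14.1, 14.7, 12.05 and 10.3 CPM and 7.46, 7.02, 9.99 and 7.32 CPM. Its falls were smaller, -0.57 ± 0.19 (adjusted p = 0.017) and -0.68 ± 0.19 (adjusted p = 0.019). The first was not called without E18.5 replicate 2 or 2-week replicate 4 (adjusted p = 0.061 and 0.064), nor the second without 2-week replicate 1 or 2 or 7-week replicate 2 or 4 (adjusted p from 0.053 to 0.062). All 3 genes fell in both intervals under the total count, with the GC trend removed and without E18.5 replicates 3 and 4. The sum of 8 fibroblast markers was 6914 to 11780 CPM at E18.5, 3501 to 5272 CPM at 2 weeks and 885 to 3138 CPM at 7 weeks. Of the 8 markers, 6 fell to 2 weeks and 3 fell after it, and none rose. Over all genes 34.2% and 13.9% fell in these intervals. The part of fibroblasts in the falls of the 3 genes was not tested. In bulk RNA, fewer cells of a type and less RNA per cell cannot be told apart.

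The other peroxiredoxins rose to 2 weeks, apart from *Prdx1*. *Prdx5*, found in mitochondria and peroxisomes, was at 9.76, 31.5, 23.8 and 32.5 CPM at E18.5, at 148, 151, 155 and 207 CPM at 2 weeks and at 99.3, 151, 249 and 186 CPM at 7 weeks. The E18.5 libraries lay far below all others, and the later ages overlapped. Its log2 fold change was 2.76 ± 0.35 (adjusted p = 1.6e-05), then 0.05 ± 0.33 (adjusted p = 0.92), and the difference between the intervals was 2.71 ± 0.55 (adjusted p = 0.0024). *Prdx3*, the main peroxiredoxin of the mitochondrial matrix, was at 102, 80.6, 136 and 184 CPM, 236, 287, 296 and 296 CPM and 388, 428, 441 and 395 CPM. No library of an age overlapped with those of another. The rise to 2 weeks was 1.15 ± 0.21 (adjusted p = 0.00036), and the value after it, 0.57 ± 0.21 (adjusted p = 0.061), missed the threshold (it was called without E18.5 replicate 2 or 4, adjusted p = 0.026 and 0.027). *Prdx6*, whose peroxidase also repairs phospholipids, was at 40.3, 42.5, 55.3 and 67.7 CPM, 82.3, 100.3, 119 and 139.9 CPM and 171, 196, 235 and 176 CPM, again with no overlap. It rose in both intervals, by 1.1001 ± 0.20 (adjusted p = 0.00034) and 0.82 ± 0.20 (adjusted p = 0.0096). The cytosolic *Prdx2* lay at 55.5 to 114 CPM at E18.5, 207 to 259.7 CPM at 2 weeks and 165 to 300.5 CPM at 7 weeks, with a log2 fold change of 1.41 ± 0.22 (adjusted p = 8.4e-05) to 2 weeks. *Prdx2* is abundant in red blood cells, whose 9 markers summed to 242 to 1027 CPM at E18.5, 146 to 756 CPM at 2 weeks and 92.0 to 129.7 CPM at 7 weeks. Their part in the rise was not tested. *Prdx1*, the most widely expressed cytosolic form, lay at 202 to 327 CPM at E18.5, 210.3 to 259 CPM at 2 weeks and 302 to 336 CPM at 7 weeks. Its changes of -0.21 ± 0.16 (adjusted p = 0.25) and 0.41 ± 0.16 (adjusted p = 0.071) were not called, though the first was called as a fall without E18.5 replicate 2 (adjusted p = 0.036), the second as a rise without E18.5 replicate 1 or 2 (adjusted p = 0.048 and 0.026), and with the GC trend removed the first was 0.38 (adjusted p = 0.025).

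In the thioredoxin system, the RNA of the mitochondrial and the cytosolic thioredoxin followed different courses. *Txn2*, the mitochondrial thioredoxin, was at 27.6, 69.3, 58.9 and 67.0 CPM at E18.5, at 319, 342, 289 and 364 CPM at 2 weeks and at 244, 299, 415 and 316 CPM at 7 weeks. *Txn1*, its cytosolic and nuclear counterpart, was at 45.2, 61.7, 48.3 and 49.8 CPM, 49.6, 58.0, 57.2 and 57.7 CPM and 35.5, 43.6, 57.8 and 50.2 CPM. The *Txn2* libraries at E18.5 lay below all later ones, whereas the 3 ages of *Txn1* overlapped. *Txn2* rose by 2.56 ± 0.26 (adjusted p = 2.8e-06) and then changed by -0.05 ± 0.25 (adjusted p = 0.91), with a difference of 2.61 ± 0.42 (adjusted p = 0.00052). *Txn1* changed by 0.12 ± 0.16 (adjusted p = 0.52) and -0.25 ± 0.16 (adjusted p = 0.26). The reductases that recharge them with NADPH both rose to 2 weeks. *Txnrd2*, of mitochondria, was at 5.19, 8.55, 12.4 and 18.3 CPM, 20.8, 22.9, 23.5 and 24.3 CPM and 27.0, 27.9, 38.7 and 31.5 CPM. No library of an age overlapped with another age. *Txnrd2* rose by 1.04 ± 0.29 (adjusted p = 0.0055), by 1.73 without the *Ucp1*-rich libraries, and by 0.48 ± 0.25 (adjusted p = 0.11) with the GC trend removed, where the call was lost. *Txnrd1*, of the cytosol, was at 35.1, 40.8, 45.7 and 45.7 CPM, 44.5, 52.3, 75.8 and 66.4 CPM and 108, 99.9, 85.6 and 91.6 CPM. The 7-week libraries were above all others, and it rose by 0.51 ± 0.17 (adjusted p = 0.016) and 0.69 ± 0.17 (adjusted p = 0.0093). The first rise was not called without 2-week replicate 3 (adjusted p = 0.063), and under the total count it was a fall of -0.44 (adjusted p = 0.023).

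Glutathione is made by glutamate-cysteine ligase, the limiting step, and by glutathione synthetase, and is reduced again by glutathione reductase. None of the 4 genes was called between E18.5 and 2 weeks, and 3 of them rose after 2 weeks. The catalytic subunit of the ligase, *Gclc*, was at 15.7, 12.7, 14.3 and 17.9 CPM at E18.5, at 12.8, 12.2, 17.9 and 12.2 CPM at 2 weeks and at 22.4, 23.9, 16.6 and 18.2 CPM at 7 weeks. The highest 2-week library, replicate 3, reached the range of the 7-week ones, and the log2 fold change was 0.56 ± 0.18 (adjusted p = 0.031). That call was lost when any of 2-week replicates 1, 2 and 4 or 7-week replicates 1 and 2 was left out (adjusted p from 0.074 to 0.099). *Gclm*, the modifier subunit, was at 18.1, 12.4, 17.6 and 17.1 CPM, 15.01, 13.9, 15.9 and 13.4 CPM and 22.0, 18.2, 21.3 and 19.0 CPM. Its 2-week and 7-week libraries did not overlap, with a log2 fold change of 0.47 ± 0.15 (adjusted p = 0.029). It too was lost without any of 2-week replicates 1, 2 and 4 or 7-week replicates 1, 3 and 4 (adjusted p from 0.051 to 0.083), and with the GC trend removed it was 0.30 ± 0.13 (adjusted p = 0.084). *Gsr*, glutathione reductase, was at 16.9, 18.4, 18.8 and 20.6 CPM, 17.3, 18.8, 25.02 and 24.9 CPM and 28.9, 30.6, 36.5 and 33.6 CPM. All 7-week libraries exceeded all earlier ones, and the rise of 0.59 ± 0.15 (adjusted p = 0.011) kept its call whichever library was left out (highest adjusted p = 0.046). *Gss*, glutathione synthetase, lay at 5.89 to 9.91 CPM at E18.5, 10.3 to 10.96 CPM at 2 weeks and 7.02 to 10.1 CPM at 7 weeks, with changes of 0.35 ± 0.18 (adjusted p = 0.089) and -0.28 ± 0.18 (adjusted p = 0.26).

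The glutaredoxins, which use glutathione to reduce mixed disulphides, all rose to 2 weeks and were not called afterwards. *Glrx*, the cytosolic form, was at 17.1, 15.99, 18.4 and 25.01 CPM at E18.5, at 44.0, 58.3, 61.0 and 61.7 CPM at 2 weeks and at 61.2, 70.6, 58.8 and 54.5 CPM at 7 weeks. *Glrx5*, a mitochondrial protein of iron-sulphur cluster assembly, was at 10.5, 11.4, 9.29 and 12.1 CPM, 38.8, 43.3, 37.1 and 61.2 CPM and 21.0, 31.9, 58.1 and 36.3 CPM. In both genes every E18.5 library lay below every later one, and the later ages overlapped. *Glrx* rose by 1.56 ± 0.17 (adjusted p = 4.3e-06) and *Glrx5* by 2.06 ± 0.26 (adjusted p = 1.7e-05), and both changes differed from those after 2 weeks, by 1.43 ± 0.28 (adjusted p = 0.0019) and 2.35 ± 0.43 (adjusted p = 0.0012). *Glrx2*, of mitochondria and nucleus, lay at 18.8 to 30.0 CPM at E18.5, 43.2 to 49.9 CPM at 2 weeks and 54.8 to 58.9 CPM at 7 weeks. Its rise of 0.86 ± 0.15 (adjusted p = 0.00016) became -0.07 under the total count.

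The 4 glutathione S-transferases, which attach glutathione to reactive compounds, also rose to 2 weeks. *Gstm1* was at 21.3, 28.7, 31.1 and 27.8 CPM at E18.5, at 69.5, 82.8, 87.8 and 93.1 CPM at 2 weeks and at 125, 122, 178 and 146 CPM at 7 weeks. Its 3 ages did not overlap, and it rose by 1.61 ± 0.17 (adjusted p = 3e-06) and 0.78 ± 0.17 (adjusted p = 0.0041), with the larger change before 2 weeks (difference 0.84 ± 0.28, adjusted p = 0.03). *Gstp1* was at 12.7, 32.4, 22.9 and 20.2 CPM, 88.3, 93.2, 88.9 and 96.2 CPM and 94.9, 108, 163 and 133 CPM. The E18.5 libraries lay below all others and the later ages overlapped. *Gstp1* rose by 2.06 ± 0.25 (adjusted p = 9.4e-06) and was not called later, 0.44 ± 0.24 (adjusted p = 0.18). *Gsta4*, which handles the lipid product 4-hydroxynonenal, was at 2.02, 2.00, 6.24 and 8.33 CPM, 8.99, 10.8, 10.2 and 15.1 CPM and 13.2, 14.7, 18.9 and 12.6 CPM. E18.5 replicates 3 and 4 held the highest values of their age, and the rise was 1.28 ± 0.39 (adjusted p = 0.011) with them and 2.48 ± 0.28 (adjusted p = 1.7e-05) without them. *Gstm2* lay at 19.8 to 30.9 CPM at E18.5, 36.0 to 50.1 CPM at 2 weeks and 37.3 to 60.2 CPM at 7 weeks, and its rise of 0.88 ± 0.18 (adjusted p = 0.00075) became -0.07 under the total count. The Gstm genes and the pair *Gstp1* and *Gstp2* are close copies, so their counts are uncertain where reads fit more than 1 of them. *Gstp2*, named for this reason alone, lay at 0.727 to 1.32 CPM at E18.5, 14.0 to 22.7 CPM at 2 weeks and 21.3 to 47.7 CPM at 7 weeks, with a rise of 4.12 ± 0.30 (adjusted p = 1.6e-07) to 2 weeks.

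The gene of NRF2 fell to 2 weeks and rose after it, and *Nqo1*, one of its target genes, rose after 2 weeks. *Nfe2l2* itself (ENSMUSG00000015839, GRCm39 chr2:75504739-75534985, minus strand) was at 51.9, 40.6, 57.5 and 57.0 CPM at E18.5, at 35.7, 38.4, 35.5 and 32.7 CPM at 2 weeks and at 50.4, 48.2, 56.2 and 52.0 CPM at 7 weeks. The 2-week libraries were below every library of the other ages. *Nfe2l2* fell to 2 weeks by 0.54 ± 0.13 on the log2 scale (adjusted p = 0.0027) and rose after it by 0.54 ± 0.13 (adjusted p = 0.0092). At 7 weeks the log2 difference from E18.5 was -0.002 ± 0.13 (adjusted p = 0.99). The contrast of the intervals was -1.08 ± 0.23 (adjusted p = 0.0034). The fall was -0.38 ± 0.16 (adjusted p = 0.059) without E18.5 replicates 3 and 4 and -0.20 ± 0.12 (adjusted p = 0.16) with the GC trend removed, neither of them called. The later rise was called in both settings (0.54 and 0.41), and was 0.18 ± 0.15 (adjusted p = 0.36) under the total count. *Nqo1* (ENSMUSG00000003849, GRCm39 chr8:108113835-108129934, minus strand), a quinone reductase often read as a gauge of NRF2 activity, was at 3.74, 3.33, 3.53 and 2.34 CPM, 1.86, 2.28, 4.05 and 3.70 CPM and 11.9, 9.82, 14.7 and 15.1 CPM. Its lowest 7-week library was above its highest earlier one. The log2 fold change was -0.12 ± 0.26 (adjusted p = 0.69) to 2 weeks and 2.11 ± 0.26 (adjusted p = 0.00012) after it, and the changes differed by -2.23 ± 0.47 (adjusted p = 0.0027). It was the only member called by a test for a log2 fold change beyond 1 in the second interval, and its rise was 1.79 under the total count (adjusted p = 0.00017).

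*Hmox1*, haem oxygenase, is another classical target but went down. It was at 8.36, 15.8, 12.8 and 13.1 CPM at E18.5, at 11.9, 10.6, 11.995 and 9.28 CPM at 2 weeks and at 7.28, 5.28, 7.49 and 5.62 CPM at 7 weeks. The 7-week libraries lay below all others, and it fell by 0.77 ± 0.20 on the log2 scale (adjusted p = 0.012) after 2 weeks. Macrophages hold much of this enzyme, and their 8 markers summed to 202 to 258 CPM at E18.5, 114 to 158 CPM at 2 weeks and 44.1 to 121 CPM at 7 weeks, so their summed level was lower as well. Their part in the fall of *Hmox1* was not tested. Of *Nfe2l2* and 7 target genes among the members (*Nqo1*, *Gclc*, *Gclm*, *Gsr*, *Txnrd1*, *Hmox1* and *Prdx1*, a set put together after the values were seen), 1 rose and 1 fell to 2 weeks. After 2 weeks 6 rose, *Hmox1* fell and *Prdx1* was not called. Over all genes 13.5% rose and 13.9% fell in that interval. Under the total count the set gave 1 rise and 1 fall after 2 weeks, those of *Nqo1* and *Hmox1*. In that setting 4.92% of all genes rose and 28% fell after 2 weeks. The counts depend on that choice of genes: *Gstm1*, *Gstp1*, *Gsta4*, *Srxn1* and *Sqstm1*, which are also known as targets, all rose to 2 weeks.

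**Figure D3:**
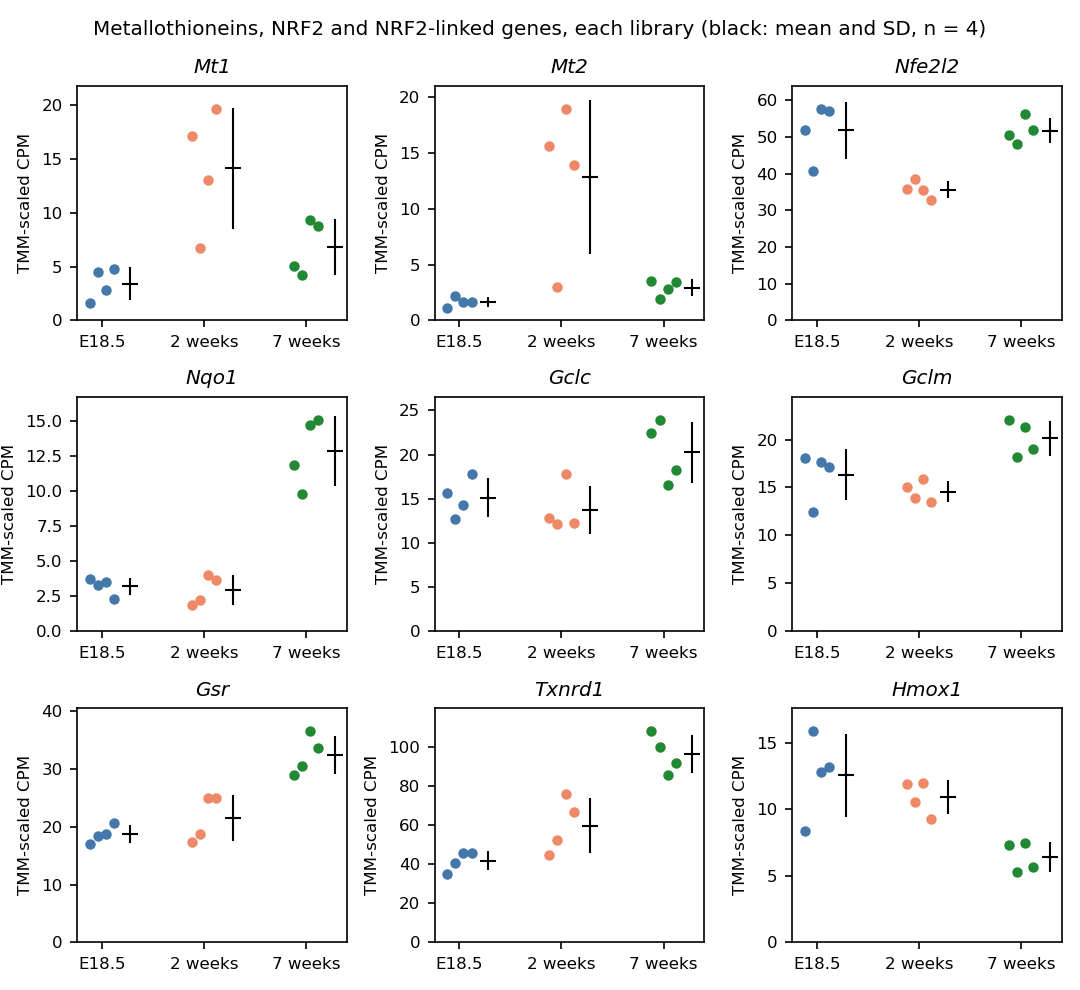
TMM-scaled CPM in each library (coloured points, 4 per age) of the metallothioneins, Nfe2l2 and 6 genes linked to NRF2, with mean and standard deviation in black. Mt1 and Mt2 peak at 2 weeks with 2-week replicate 2 far below the other 3 libraries (6.69 and 2.99 CPM), Nfe2l2 dips at 2 weeks, and Nqo1 is above 9 CPM only at 7 weeks.

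The metallothioneins made a peak at 2 weeks. *Mt2* was at 1.11, 2.21, 1.61 and 1.65 CPM at E18.5, at 15.6, 2.99, 18.9 and 13.9 CPM at 2 weeks and at 3.53, 1.89, 2.82 and 3.41 CPM at 7 weeks. *Mt1* was at 1.57, 4.52, 2.78 and 4.81 CPM, 17.1, 6.69, 13.0 and 19.6 CPM and 5.02, 4.21, 9.33 and 8.74 CPM. In both genes 2-week replicate 2 was the lowest of its age and within the range of the 7-week libraries, while all 2-week libraries were above all E18.5 ones. *Mt2* rose by 2.96 ± 0.44 (adjusted p = 6.1e-05), the largest log2 fold change of the 35 genes in that interval, and fell by 2.14 ± 0.43 on the log2 scale (adjusted p = 0.003). The changes differed by 5.10 ± 0.69 (adjusted p = 0.00017), also the largest value of the members. *Mt1* rose by 2.04 ± 0.40 (adjusted p = 0.00051), changed by -1.05 ± 0.39 (adjusted p = 0.061) after 2 weeks, and the difference was 3.09 ± 0.64 (adjusted p = 0.0027). Its decrease was called without 2-week replicate 2 or E18.5 replicate 1 (adjusted p = 0.03 and 0.035). At 7 weeks against E18.5, *Mt1* was higher by 0.995 ± 0.39 (adjusted p = 0.034), a call lost without any of E18.5 replicates 1 and 3 or 7-week replicates 3 and 4 (adjusted p from 0.081 to 0.1) and negative under the total count (-0.29). *Mt2* differed by 0.82 ± 0.42 (adjusted p = 0.095) there, and by 0.83 ± 0.25 (adjusted p = 0.0091) when 2-week replicate 2 was left out of the fit. The peak of *Mt2* was called under the total count (2.01 and -2.47), with the GC trend removed (2.09 and -1.79) and without E18.5 replicates 3 and 4 (2.95 and -2.14). The non-coding gene *Gm45774* overlaps 82.4% of the exon length of *Mt2* on the opposite strand, but it held 209 counts over the 12 libraries against 5558 for *Mt2*.

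A comparison by compartment, set up after the values were seen and so without a test of its own, put these courses side by side. The 7 genes grouped here as mitochondrial (*Sod2*, *Prdx3*, *Prdx5*, *Txn2*, *Txnrd2*, *Glrx2* and *Glrx5*) all rose to 2 weeks, where 31.5% of all genes rose. Their log2 fold changes ran from 0.86 to 2.76. None of the 7 was called after 2 weeks, where 13.5% of all genes rose. The group was picked by hand and need not hold every member with a product in mitochondria, so these counts depend on that choice. With only the 8 libraries of the later ages fitted, 4 of the 7 rose after 2 weeks (*Sod2*, *Prdx3*, *Txnrd2* and *Glrx2*). Without E18.5 replicates 3 and 4 the counts of rises in the intervals were 7 and 2, with the GC trend removed 6 and 0, and under the total count 3 and 0. Over all genes 27.9% and 12.8% rose without those replicates, 32.9% and 15.1% with the GC trend removed, and 13.2% and 4.92% under the total count. With only the 8 libraries of the later ages, 18% of all genes rose after 2 weeks. The 3 genes of the endoplasmic reticulum fell in both intervals. The 5 selenoprotein genes (*Gpx1*, *Gpx3*, *Gpx4*, *Txnrd1* and *Txnrd2*) were all higher at 7 weeks than at E18.5 with TMM, where 34.3% of all genes were, and none of them was called so under the total count. Of the 8 muscle fibre markers 6 rose and 2 fell to 2 weeks, the latter being the developmental myosins *Myh3* and *Myh8*. Mitochondrially encoded RNA took 3.27% to 7.58% of the reads at E18.5, 7.81% to 10.3% at 2 weeks and 12.9% to 16.02% at 7 weeks. Their part in the rise was not tested.

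Ratios of counts between relatives within a library do not depend on the scaling, although they reflect transcript length as well, so only their change between ages can be read. That change still holds any trend with age over GC content or length, for which the ratios were not adjusted. *Prdx3* to *Prdx4* was 1.94, 1.93, 3.13 and 5.31 at E18.5, 14.7, 18.1, 21.1 and 26.7 at 2 weeks and 61.3, 65.5, 51.2 and 60.5 at 7 weeks. The ages did not overlap, and the mean log2 ratio moved by 2.81 ± 0.39 (exact permutation p = 0.0286, adjusted p = 0.0714) and 1.59 ± 0.20 (exact permutation p = 0.0286, adjusted p = 0.0714). *Txn2* to *Txn1* was 0.611, 1.12, 1.22 and 1.35, then 6.43, 5.90, 5.05 and 6.31, then 6.86, 6.86, 7.18 and 6.29. It moved by 2.52 ± 0.27 to 2 weeks (exact permutation p = 0.0286, adjusted p = 0.0714) and by 0.20 ± 0.09 after it (exact permutation p = 0.0857, adjusted p = 0.107). *Sod2* to *Sod1* had medians of 1.04, 2.66 and 4.39, with overlap between neighbouring ages. *Txnrd2* to *Txnrd1* had medians of 0.241, 0.401 and 0.312. *Glrx2* to *Glrx* moved the opposite way to the other 4 ratios in the first interval, by -0.68 ± 0.17 (exact permutation p = 0.0286, adjusted p = 0.0714). With 4 libraries against 4 the smallest p these two-sided tests can give is 0.0286, and over the 10 tests the smallest adjusted p was 0.0714, so none passed after adjustment. The pairs were picked with the values known.

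**Figure D4:**
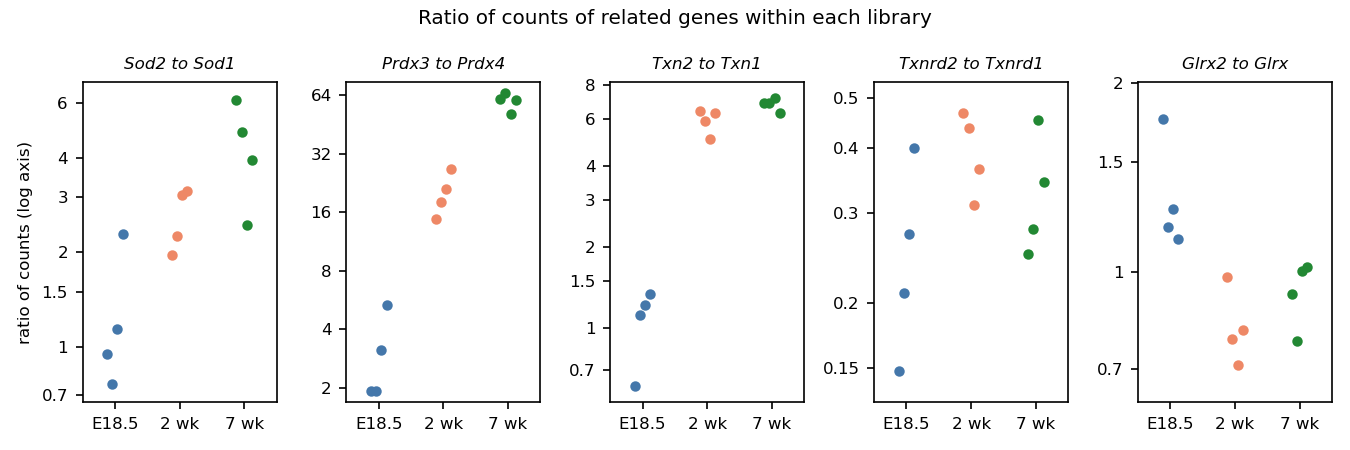
Ratio of counts of a mitochondrial gene to its relative of another compartment in each library (points, 4 per age, log axes that differ between panels). The Prdx3 to Prdx4 ratio has medians of 2.53, 19.6 and 60.9 with no overlap between ages, and the Txn2 to Txn1 ratio has medians of 1.17, 6.11 and 6.86 with overlap between the later ages.

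Other genes of the same pathways were examined as lists, and the genes named from each are, with *Keap1*, *Txnip*, *Srxn1* and *Ccs*, those with the largest called rise and fall. All 8 regulators of NRF2 were called to 2 weeks, 6 up and 2 down, and 5 rose after it. *Sqstm1*, the autophagy receptor that pulls KEAP1 away from NRF2, rose most (log2 fold change 2.22 ± 0.22, adjusted p = 1.9e-06) and *Maff*, a small MAF partner, fell most (log2 fold change -1.49 ± 0.25, adjusted p = 0.00017). *Keap1*, the inhibitor, lay at 11.6 to 23.1 CPM at E18.5, 66.2 to 84.8 CPM at 2 weeks and 69.7 to 112 CPM at 7 weeks, and rose by 2.13 ± 0.21 (adjusted p = 2.2e-06) with 0.27 ± 0.20 (adjusted p = 0.34) after 2 weeks. The inhibitor thus rose in the interval in which *Nfe2l2* fell, also under the total count (1.19) and with the GC trend removed (1.102), where the fall of *Nfe2l2* lost its call. *Nfe2l1*, a relative of NRF2 that controls proteasome genes, rose most after 2 weeks (log2 fold change 1.08 ± 0.23, adjusted p = 0.0036). Of 7 genes that supply NADPH, 2 rose and 4 fell to 2 weeks. *Me3*, the mitochondrial malic enzyme, lay at 3.35 to 7.00 CPM at E18.5, 99.4 to 131 CPM at 2 weeks and 176 to 248 CPM at 7 weeks, a rise of 4.73 ± 0.26 (adjusted p = 1.2e-08). *G6pdx*, the entry enzyme of the pentose phosphate pathway, was at 14.9, 18.4, 51.1 and 48.5 CPM at E18.5, 8.55, 8.66, 8.16 and 6.27 CPM at 2 weeks and 7.06, 6.07, 4.72 and 5.08 CPM at 7 weeks. It fell by 2.07 ± 0.35 on the log2 scale (adjusted p = 0.00015), and by -1.08 without the *Ucp1*-rich libraries, which held its highest values. After 2 weeks 2 of these genes rose, *Me1*, the cytosolic malic enzyme, most (log2 fold change 1.62 ± 0.29, adjusted p = 0.0016).

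Among 10 partners of thioredoxin and the peroxiredoxins, 7 rose and 1 fell to 2 weeks, and 3 rose after it. The largest rise was that of *Msrb2*, a mitochondrial methionine sulphoxide reductase (log2 fold change 2.31 ± 0.23, adjusted p = 2e-06), and the fall was that of *Sesn1*, a sestrin (log2 fold change -0.90 ± 0.14, adjusted p = 7.7e-05). *Msrb3* rose most after 2 weeks (log2 fold change 0.96 ± 0.19, adjusted p = 0.0024). *Txnip*, the inhibitor of thioredoxin, lay at 106 to 419 CPM at E18.5, 440.1 to 999 CPM at 2 weeks and 928 to 1606 CPM at 7 weeks, with a rise of 1.79 ± 0.40 (adjusted p = 0.0013) and 0.73 ± 0.39 (adjusted p = 0.17) after it. *Srxn1*, sulphiredoxin, which repairs overoxidised peroxiredoxins, rose by 1.12 ± 0.16 (adjusted p = 3.2e-05). Of 17 other genes of glutathione use and transport, 9 rose and 1 fell to 2 weeks, and 3 rose after it. *Chac1*, which degrades glutathione, lay at 0.0555 to 0.197 CPM at E18.5, 15.6 to 29.1 CPM at 2 weeks and 12.3 to 79.3 CPM at 7 weeks, a rise to 2 weeks of 7.40 ± 0.67 (adjusted p = 9.9e-07). *Mgst1*, a microsomal transferase, was at 14.3, 15.4, 155 and 103 CPM at E18.5, 6.79, 8.07, 11.5 and 7.38 CPM at 2 weeks and 58.6, 67.3, 79.2 and 54.4 CPM at 7 weeks. It fell by 3.09 ± 0.63 on the log2 scale (adjusted p = 0.00069), by -0.81 without the *Ucp1*-rich libraries, and rose by 2.94 ± 0.63 (adjusted p = 0.0041) after 2 weeks.

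Selenoproteins and the machinery that inserts selenocysteine numbered 15 further genes, of which 8 rose and 1 fell to 2 weeks. *Selenow*, a small selenoprotein abundant in muscle, lay at 50.4 to 121 CPM at E18.5, 741 to 899.7 CPM at 2 weeks and 688 to 1326 CPM at 7 weeks. Its rise was 3.34 ± 0.28 (adjusted p = 5.5e-07), and the fall was that of *Sephs1* (log2 fold change -0.59 ± 0.12, adjusted p = 0.00065). After 2 weeks 3 rose, *Selenot* most (log2 fold change 0.67 ± 0.18, adjusted p = 0.016), and 2 fell, *Selenom* most (log2 fold change -1.43 ± 0.35, adjusted p = 0.0092). Among 13 genes of copper, zinc, iron and haem handling, 6 rose and 1 fell to 2 weeks, then 1 rose and 2 fell. *Mt3*, a metallothionein better known from brain, was at 0.499, 1.63, 0.512 and 0.753 CPM at E18.5, 4.81, 3.39, 3.90 and 2.01 CPM at 2 weeks and 1.16, 0.901, 1.58 and 1.22 CPM at 7 weeks. It rose by 2.05 ± 0.39 (adjusted p = 0.0004) and then fell by 1.53 ± 0.39 on the log2 scale (adjusted p = 0.011), the largest rise and the largest fall of its list. The zinc importer *Slc39a10* fell by 1.21 ± 0.24 on the log2 scale (adjusted p = 0.00055), and *Mtf1*, the metal-sensing activator, rose by 0.67 ± 0.16 (adjusted p = 0.0088) after 2 weeks. *Ccs*, the chaperone that loads copper into SOD1, rose by 1.18 ± 0.28 (adjusted p = 0.0022). Of 10 enzymes that generate oxidants, 3 rose and 4 fell to 2 weeks, then 2 rose and 4 fell. *Xdh*, xanthine oxidoreductase, lay at 1.51 to 7.23 CPM at E18.5, 35.8 to 54.6 CPM at 2 weeks and 84.0 to 166 CPM at 7 weeks and rose by 3.60 ± 0.41 (adjusted p = 6.5e-06). *Maob*, monoamine oxidase B, fell by 1.32 ± 0.25 on the log2 scale (adjusted p = 0.00035) and rose by 1.87 ± 0.25 (adjusted p = 0.00019), and *Ncf1*, a subunit of the phagocyte NADPH oxidase, fell most after 2 weeks (log2 fold change -1.41 ± 0.23, adjusted p = 0.00074). These counts stand against 31.5% of all genes up and 34.2% down in the first interval, and 13.5% up and 13.9% down in the second. Under the total count the first interval gave 4 up and 2 down for the regulators of NRF2, 2 and 5 for NADPH supply, 3 and 3 for the thioredoxin partners, 6 and 6 for the glutathione genes, 1 and 8 for the selenoprotein list, 4 and 7 for metal handling and 1 and 7 for the oxidant sources. Without the *Ucp1*-rich libraries it gave, in the same order, 5 and 2, 2 and 3, 7 and 1, 11 and 1, 9 and 1, 8 and 1, and 2 and 4. Over all genes 13.2% rose and 61.9% fell to 2 weeks under the total count. Without the *Ucp1*-rich libraries these shares were 27.9% and 30.1%. Of the genes named from these lists, *Txnip* (0.84), *Srxn1* (0.18) and *Ccs* (0.25) lost their rise to 2 weeks under the total count, and *Selenot* (0.33) and *Mtf1* (0.34) their rise after it.

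The change of each member to 2 weeks was set against 3 other ways of processing. Under the total count, 9 members rose: *Gpx1*, *Prdx5*, *Txn2*, *Glrx*, *Glrx5*, *Gstm1*, *Gstp1*, *Mt1* and *Mt2*. All 9 rose with TMM as well. *Sod1*, *Txnrd1*, *Glrx2* and *Gstm2* rose with TMM and had negative values here. With the GC trend removed, *Gpx4*, *Txnrd2* and *Nfe2l2* lost their call, while *Gss* (0.55), *Gclm* (0.43) and *Prdx1* (0.38) were called as rising and *Hmox1* (-0.53) as falling. Without E18.5 replicates 3 and 4, *Nfe2l2* lost its call and *Cat*, *Sod3*, *Gpx3* and *Gss* (0.56) were called as rising. The other 23 members called with all libraries kept direction and call. Among the peroxide-removing enzymes not given so far, log2 fold changes to 2 weeks in that setting were *Gpx1* at 2.37, *Gpx4* at 2.02, *Prdx2* at 1.46, *Prdx3* at 1.61, *Prdx5* at 3.00 and *Prdx6* at 1.41, and those of the falling genes *Gpx7* at -0.65, *Gpx8* at -1.45 and *Prdx4* at -1.73. For the others called, they were *Sod1* at 0.64, *Txn2* at 2.76, *Txnrd1* at 0.65, *Glrx* at 1.76, *Glrx2* at 0.90, *Glrx5* at 2.04, *Gstm1* at 1.74, *Gstm2* at 1.06, *Gstp1* at 2.02 and *Mt1* at 2.21. Of the pathway genes, *Keap1* at 2.10, *Sqstm1* at 2.26, *Me3* at 5.14, *Msrb2* at 2.69, *Txnip* at 2.59, *Chac1* at 7.21, *Selenow* at 3.21, *Mt3* at 1.72 and *Xdh* at 4.55 were called as rising there too.

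**Figure D5:**
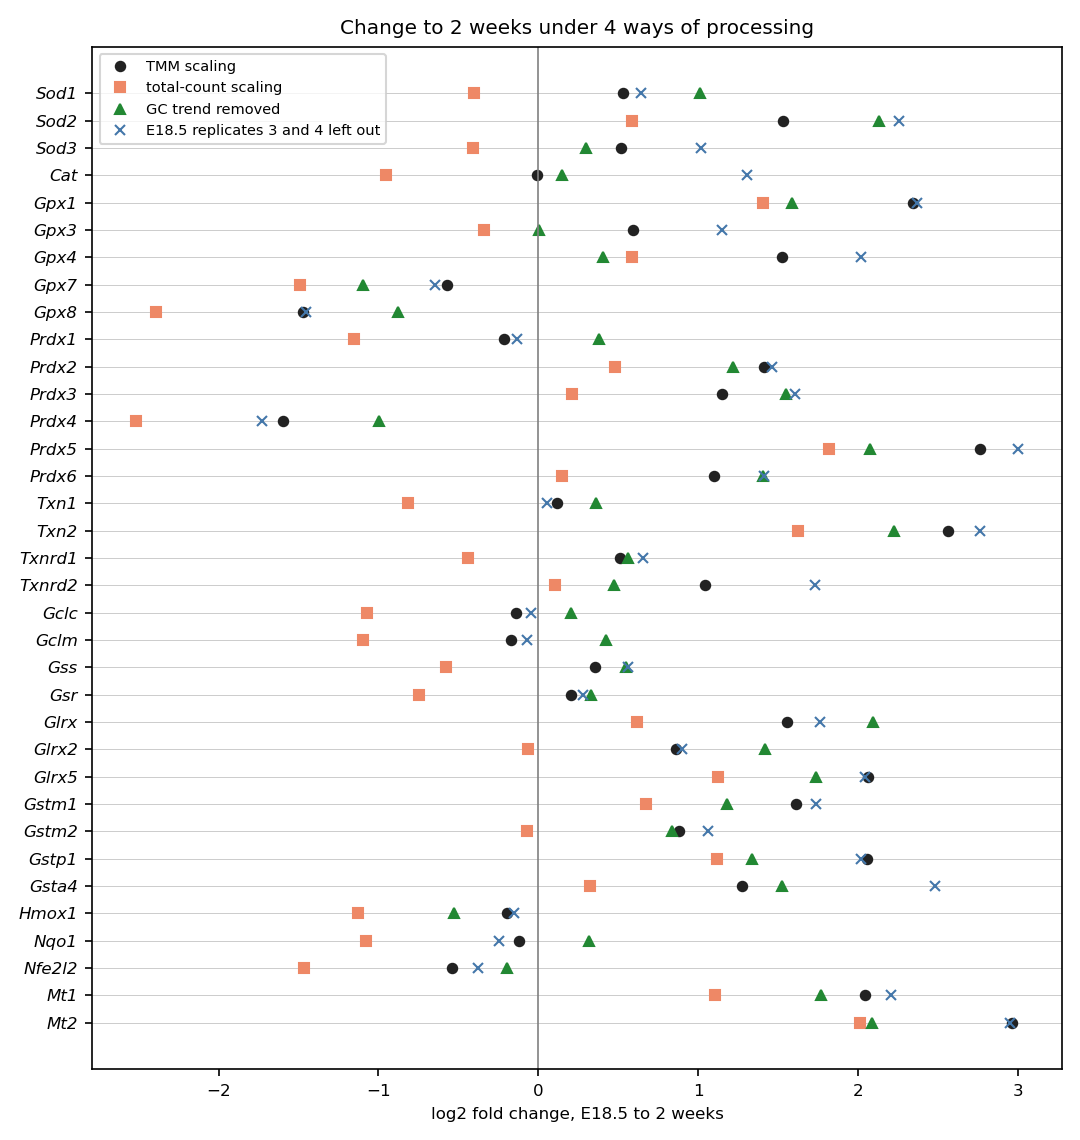
Log2 fold change of each of the 35 genes from E18.5 to 2 weeks (horizontal axis) with TMM scaling, with scaling to the total count, with the trend over GC content removed, and with E18.5 replicates 3 and 4 left out. The squares for the total count lie about 0.93 to the left of the black points for every gene, and Cat moves most when both E18.5 libraries are left out, from -0.0052 to 1.31.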

How the data were processed

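Poly-A RNA libraries (TruSeq Stranded mRNA) of tibialis anterior, 12 in all, were sequenced as read pairs of 100 bases. The deposited values are raw counts of reads per Ensembl gene, which the authors made with bcl2fastq 2.17.1.14, cutadapt 1.10, STAR 2.5.3a and HTSeq 0.6.1p1 according to the submitters' processing notes. The labels name the genome build mm10 and the study's methods GRCm39, and the annotation and strand setting of the counting are not given in the sources used here. The table held 55450 genes and no other columns. Depth was 63018968 to 123449246 counts per library, and no libraries of an age were copies (chi-square per degree of freedom 31.2 to 524 over 18 pairs).

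Symbols and positions came from GENCODE vM39 (GRCm39), which held 51477 of the identifiers, and promoters from RefSeq (GRCm38.p6). Groups followed the labels. Genes with low counts were removed with filterByExpr, which left 19276 and removed 36174. One edgeR 4.0.16 quasi-likelihood model of all 12 libraries with age as its factor was fitted after TMM scaling (biological coefficient of variation 0.279), and p-values were adjusted by Benjamini-Hochberg over all tested genes, with calls at 0.05. Fold changes are on the log2 scale with approximate standard errors, derived from the fold change and the F statistic of its test. For the ratios of counts, the standard error comes from the variances of the log2 ratios at the ages compared. Tools were R 4.3.3, limma 3.58.1, DESeq2 1.42.0, Python 3.11.15, pandas 2.3.3, scipy 1.17.1, matplotlib 3.10.9 and Biopython 1.88. Alternatives were other scalings (total count, upper quartile, TMM without the 20 most abundant and the 37 mitochondrial genes), DESeq2, no filter, a minimum of 10 counts in every library, a replicate block, only the 8 libraries compared, a test beyond a log2 fold change of 1 (glmTreat), removal of a trend over GC content (known for 98.7% of tested genes) and leaving out each library. Removal of a length trend and leaving out E18.5 replicates 3 and 4 were chosen after seeing the data. The members and lists were chosen with earlier results of these data known. All members could be named, and from each pathway list the genes with the largest called rise and fall in each interval, plus *Keap1*, *Txnip*, *Ccs* and *Srxn1*. *Gstp2* and *Ucp1* were named after their values were seen. On simulated data for the comparison of 2 weeks with E18.5, with 18852 genes tested, edgeR recovered 122 of 200 genes changed by a factor of 2, with 4 false calls. With a GC trend added to such data (18793 genes tested), 2958 false calls arose without a correction and 4 with it. The simulated spread was smaller than the one fitted to the real libraries. Only 200 genes were changed, where 12668 were called in the real comparison, so these numbers do not give the error rates of the calls above.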

Additional observations from a re-analysis of the deposited data

Results flagged for a closer look

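Levels of the 35 genes in 3 ages gave 105 sets of 4 libraries, and in 6 of them 1 library lay far from the others by Dixon's test at the 95% level. Chance flags about 1 set in 20, which is 5.25 of 105, so this number is near what chance gives. Values are TMM-scaled CPM. At 2 weeks, *Prdx3* was at 236 CPM in replicate 1, against 287 to 296 CPM in the other libraries of that age, and *Txn1* at 49.6 CPM in the same replicate, against 57.2 to 58.0 CPM. *Prdx5* was at 207 CPM in 2-week replicate 4, against 148 to 155 CPM. *Gclc* was at 17.9 CPM in 2-week replicate 3, against 12.2 to 12.8 CPM. At 7 weeks, replicate 3 held the far value of 2 genes of the endoplasmic reticulum, with *Gpx7* at 9.99 CPM against 7.02 to 7.46 CPM and *Prdx4* at 8.61 CPM against 6.34 to 6.54 CPM. Both falls of *Prdx4* were called without that library as well.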

How the results depend on the processing

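The log2 fold changes of the 35 genes in the 3 comparisons of ages were recomputed under each alternative. Of these values, 1455 called and 797 uncalled ones kept their direction and side of the threshold. Another 118 lost their call, 66 gained one and 84 changed sign, 73 of which had not been called. Testing beyond a log2 fold change of 1 lowered the count of members called to 13 from E18.5 to 2 weeks, 1 from 2 to 7 weeks and 7 for the difference between the intervals, and the count over all genes from 12668 to 5507, from 5296 to 561, from 13755 to 7574 at 7 weeks against E18.5 and from 7398 to 2463 for the difference, as a stricter test must. Under that stricter test 37.1% of the members were called to 2 weeks, 2.86% after it and 20% for the difference. The shares of all genes were 28.6%, 2.91% and 12.8%. Without 2-week replicate 1, 3472 genes were called from 2 to 7 weeks. Leaving out E18.5 replicates 3 and 4 raised the members with different changes in the intervals to 20, or 57.1%, against 33% of all genes. A replicate block gave 25, 16 and 26 members for the 3 comparisons and 15 for the difference. These are 71.4%, 45.7%, 74.3% and 42.9% of the members, against 64.7%, 26.7%, 70.6% and 37.8% of all genes. Same-numbered libraries of different ages correlated at -0.283 to 0.514 over 12 pairs and other pairs at -0.50 to 0.38 over 36. The ranges overlap, and both ends were higher for the same-numbered pairs. Whether libraries of the same number are linked cannot be told from these ranges.

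Values that changed sign are given as log2 fold changes, and the cause was not tested. Under the total count these were, to 2 weeks, *Sod1* -0.40, *Sod3* -0.41, *Gpx3* -0.34, *Txn1* -0.81, *Txnrd1* -0.44, *Gss* -0.58, *Gsr* -0.74, *Glrx2* -0.067 and *Gstm2* -0.068. After 2 weeks they were *Sod1* -0.22, *Prdx5* -0.30, *Glrx* -0.22, *Glrx2* -0.038 and *Gstm2* -0.19. At 7 weeks against E18.5 they were *Sod1* -0.62, *Cat* -0.89, *Prdx1* -1.09, *Txnrd1* -0.078, *Gclc* -0.85, *Gclm* -0.98, *Gss* -1.21, *Gsr* -0.49, *Glrx2* -0.10, *Gstm2* -0.26, *Mt1* -0.29 and *Mt2* -0.46. With upper-quartile scaling they were *Txn1* -0.018 to 2 weeks, *Prdx5* -0.048 after it, and *Prdx1* -0.054 and *Gss* -0.16 at 7 weeks against E18.5. With the top 20 and mitochondrial genes left out of TMM, *Nfe2l2* was at 0.0021 at 7 weeks against E18.5. With the GC trend removed, *Cat* was at 0.15, *Prdx1* at 0.38, *Gclc* at 0.20, *Gclm* at 0.43 and *Nqo1* at 0.32 to 2 weeks, *Prdx2* at 0.042, *Txn2* at 0.066 and *Glrx* at -0.034 after it, and *Txn1* at 0.013 and *Nfe2l2* at 0.22 at 7 weeks against E18.5. With the length trend removed, *Txn1* was at -0.52 and *Gclm* at 0.25 to 2 weeks, *Prdx2* at 0.033 after it, and *Gss* at -0.20 and *Nfe2l2* at 0.058 at 7 weeks against E18.5. With at least 10 counts in every library, *Txn1* was at -0.0016 to 2 weeks and *Gss* at -0.083 at 7 weeks against E18.5, and with only the 8 libraries compared *Gss* was at -0.015 there. Without E18.5 replicates 3 and 4, *Cat* was at 1.31 to 2 weeks, and *Sod3* at 0.075 and *Nfe2l2* at 0.16 at 7 weeks against E18.5. With the replicate block, *Cat* was at 0.20 to 2 weeks, *Prdx5* at -0.026 after it and *Nfe2l2* at 0.0027 at 7 weeks against E18.5. When single libraries were left out, *Cat* ran from -0.27 to 0.42 and *Nqo1* from -0.30 to 0.073 to 2 weeks. After 2 weeks *Sod1* ran from -0.10 to 0.28, *Prdx2* from -0.15 to 0.13, *Prdx5* from -0.18 to 0.24 and *Txn2* from -0.20 to 0.064, and at 7 weeks against E18.5 *Gss* ran from -0.058 to 0.18 and *Nfe2l2* from -0.10 to 0.049.

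Depth did not limit the abundant members, but *Mt2* rests on 5558 counts over the 12 libraries. Counts per gene do not separate isoforms or cell types, and genes on opposite strands may share them.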
